A study of Mus musculus with 12 samples.

Results

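The genes described here are Fmr1, its paralogs Fxr1 and Fxr2, and 7 genes whose proteins bind FMRP or act with it: Cyfip1, Cyfip2, Nufip1, Nufip2, Caprin1, G3bp1 and G3bp2. They were matched by gene identifier and chromosome, the choice of genes was made with earlier results of these data known, and all 10 were found among the 55416 annotated genes of the count files. RNA was measured in whole ovaries of E16.5 mouse fetuses (embryonic age in days), as 3 input and 3 anti-FMRP immunoprecipitated (RIP) libraries from Fmr1 knockout (KO) ovary and as many of each from wild-type (WT) ovary. Each sample pooled 5 pairs of ovaries, and input is given as 10% of the homogenate. Input and RIP libraries may thus share pools and need not be independent. The labels give the strain B6.129P2-Fmr1tm1Cgr/J for every sample, WT ones included, and WT input ovaries are described as coming from littermates. The Fmr1tm1Cgr allele carries a cassette inserted into a coding exon in every cell and makes no FMRP, while its promoter stays in place. Whether KO ovaries were homozygous is not stated. Fmr1 lies on the X chromosome, so the same sire cannot father both WT and homozygous KO females. Whether KO ovaries kept an intact Fmr1 copy, and so some FMRP, was not tested. The question put to the data was whether the paralogs, or the genes of partner proteins, differed in RNA level where Fmr1 was disrupted.

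FMRP is an RNA-binding protein with KH and RGG motifs that associates with polyribosomes and mostly holds back translation of the messages it binds. FXR1P and FXR2P, made from autosomal genes, share this domain plan, form complexes with FMRP and are the candidates for taking over its work where it is missing. CYFIP1 and CYFIP2 bind FMRP and are subunits of the WAVE complex, which promotes actin branching. NUFIP1 and NUFIP2 were found as nuclear partners of FMRP, and CAPRIN1, G3BP1 and G3BP2 join it in stress granules. In the ovary, FMR1 is known from premutation carriers, who can develop primary ovarian insufficiency.

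The sequences just upstream of the 3 family genes are shown because Fmr1 reads were still counted in KO ovary and the paralogs are the genes that could answer its loss. Each window ends at the base before the annotated start, comes from the RefSeq promoter table (GRCm38.p6) and lies on the plus strand; where that table has several starts (Fmr1), its first entry is shown. The gene positions given further on come from the count files, whose Ensembl release 104 annotation is on a later build than GRCm38.p6, so these coordinates cannot be set side by side. Capitals mark the E-box (CACGTG) and the GC box (GGGCGG), searched on both strands. GC boxes can overlap each other.
Fmr1 (chrX:68678291-68678540): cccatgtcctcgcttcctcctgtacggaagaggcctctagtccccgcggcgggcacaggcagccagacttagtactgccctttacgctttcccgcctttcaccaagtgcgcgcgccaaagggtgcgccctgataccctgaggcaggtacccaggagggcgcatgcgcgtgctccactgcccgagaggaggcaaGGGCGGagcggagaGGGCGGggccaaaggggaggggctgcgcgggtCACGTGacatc
Fxr1 (chr3:34019829-34020078): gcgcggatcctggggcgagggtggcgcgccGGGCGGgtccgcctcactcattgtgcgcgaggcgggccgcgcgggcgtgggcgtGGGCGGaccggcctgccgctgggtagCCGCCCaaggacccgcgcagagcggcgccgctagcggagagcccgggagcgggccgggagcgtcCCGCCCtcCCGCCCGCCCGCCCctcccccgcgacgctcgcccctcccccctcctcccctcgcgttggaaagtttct
Fxr2 (chr11:69632721-69632970): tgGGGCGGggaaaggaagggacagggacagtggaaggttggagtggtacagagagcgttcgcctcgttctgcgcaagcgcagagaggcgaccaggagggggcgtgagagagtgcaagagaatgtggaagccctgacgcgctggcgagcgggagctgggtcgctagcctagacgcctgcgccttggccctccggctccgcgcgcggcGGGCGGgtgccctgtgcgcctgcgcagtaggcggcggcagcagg

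The Fmr1 window held 1 E-box, starting 11 bases before the annotated start, and 2 GC boxes. Sites of both kinds have been described at the human FMR1 promoter. The Fxr1 window held 7 GC boxes and the Fxr2 window 2, and neither window had a match to the E-box. Of 32851 windows of the same length, 6.02% held the E-box and 32.7% the GC box. GC content was 67.2%, 80.0% and 69.6% in the Fmr1, Fxr1 and Fxr2 windows.

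The input libraries held 18880238 to 25707718 counted reads. In every pair of replicates the reads differed beyond counting noise, with a chi-square of 8.12 to 14.2 for each degree of freedom. Levels are given in CPM, read counts scaled to a common library size with trimmed mean of M-values (TMM) factors, and p-values reflect how much pools of ovaries varied. Markers of ovarian cell types and further genes of these pathways had been listed by symbol. The RefSeq gene table that could name them held 0 of the identifiers of the count files, so these genes are not analysed here and the tissue label was not checked against them. In whole ovary, a lower level can come from fewer cells of a type or from less RNA per cell, and these cannot be told apart.

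Of the 10 genes, Fmr1 alone fell in KO ovary past the threshold, and neither paralog rose past it. Fmr1 (ENSMUSG00000000838, X chromosome, 67722147 to 67761569 in the files' annotation, Ensembl release 104) stood at 85.6, 123 and 93.4 CPM in KO replicates 1 to 3, against 204, 213 and 221 CPM in WT replicates 1 to 3. The groups did not overlap, and KO replicate 2 lay highest of the KO libraries. The mean was 101 ± 19.8 CPM in KO and 213 ± 8.47 CPM in WT (SD, n = 3 each), a log2 change of -1.08 (SE 0.11, 95% interval -1.33 to -0.82, adjusted p = 0.00775, edgeR's quasi-likelihood test). The KO mean was thus 47.3% of the WT mean. Counts over the whole gene do not show whether the remaining reads came from before or after the disrupted exon, or from an intact copy of the gene. Over the 23698 genes tested, 0.0422% passed as lower in KO, against 1 of the 10 here, the disrupted gene itself, and 0% passed as higher. Calls higher in KO were made in some other fits: 17 of 37 with DESeq2, 48 of 113 with no low-count filter, 4 of 20 with the replicate block, 19 of 37 without KO replicate 1 and 2 of 10 without WT replicate 1. None were made with RLE factors, with limma-voom or without any other library.

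**Figure D1:**
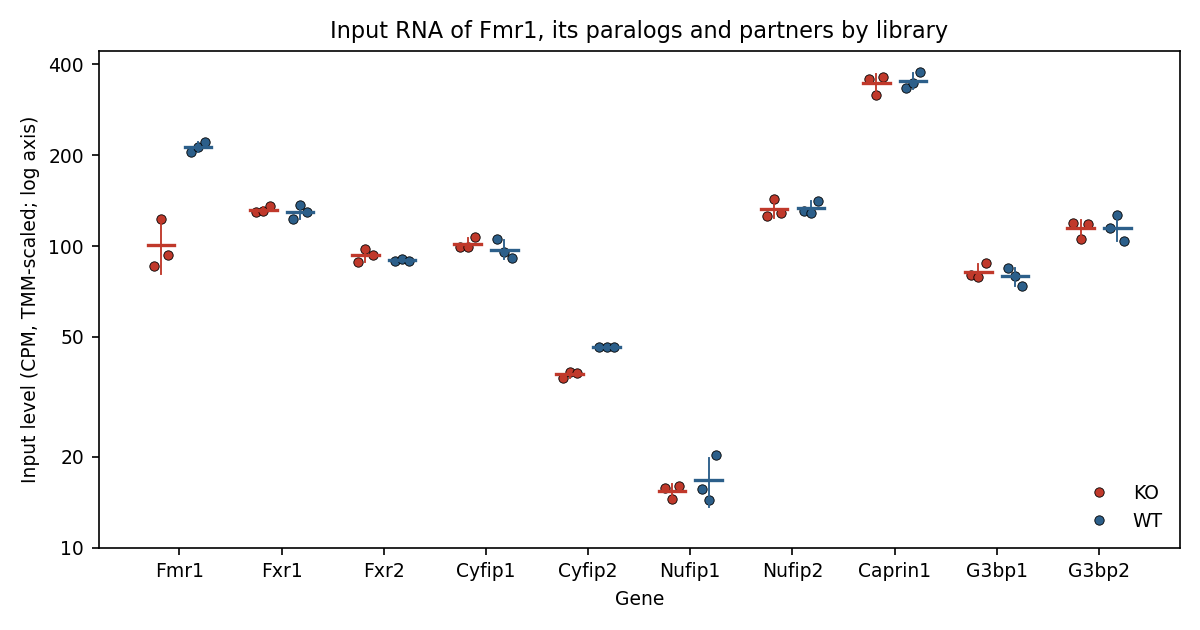
Input RNA level of each gene by library, in TMM-scaled CPM on a log axis, with KO (red) left of WT (blue); points are libraries, horizontal bars means and vertical bars 1 SD (n = 3). Fmr1 and Cyfip2 are the genes whose KO libraries all lie below their WT libraries.

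Fxr1 (ENSMUSG00000027680, chromosome 3, 34074092 to 34124471) encodes FXR1P, the paralog known in the mouse for its part in muscle and in male germ cells. It stood at 129, 130 and 136 CPM in KO, against 123, 137 and 129 CPM in WT. The groups overlapped, and the means of 132 ± 3.36 CPM in KO and 129.9 ± 6.95 CPM in WT (SD, n = 3 each) differed by less than the spread between replicates. On the log2 scale this came to 0.02 (SE 0.066, adjusted p = 0.991, edgeR). Its 95% interval, -0.12 to 0.16, ran from 0.922-fold to 1.12-fold, so an increase larger than that lies outside it. The estimate turned to -0.016 with WT replicate 1 left out.

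Fxr2 (ENSMUSG00000018765, chromosome 11, 69523816 to 69544123) encodes FXR2P. It stood at 88.5, 97.5 and 93.4 CPM in KO, against 89.4, 90.4 and 89.0 CPM in WT. One KO library lay below all WT libraries and the other KO libraries above them. The means were 93.1 ± 4.51 CPM in KO and 89.6 ± 0.72 CPM in WT (SD, n = 3 each). KO differed from WT by 0.06 on the log2 scale (SE 0.069, adjusted p = 0.977, edgeR), with a 95% interval of -0.09 to 0.20, that is 0.941-fold to 1.15-fold.

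Levels of different genes were compared per length, as TMM-scaled CPM per kilobase of annotated exon (RPKM). On this scale the family stood at 11.2 ± 2.21 for Fmr1, 20.1 ± 0.51 for Fxr1 and 24.7 ± 1.20 for Fxr2 in KO (SD, n = 3). In WT it stood at 23.7 ± 0.94 for Fmr1, 19.8 ± 1.06 for Fxr1 and 23.8 ± 0.19 for Fxr2 (SD, n = 3). In WT ovary, Fmr1 and Fxr2 levels per length thus overlapped, and Fxr1 lay below both. In KO ovary, Fmr1 lay below both paralogs in every library.

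The summed level of the 3 genes per length was 52.8, 59.5 and 55.9 in KO, against 65.3, 68.7 and 68.1 in WT. The groups did not overlap, and the KO mean was 83.2% of the WT mean. This KO sum includes 11.2 RPKM of reads from the disrupted Fmr1 gene. Fxr1 and Fxr2 together came to 44.8 ± 1.39 in KO libraries, against 43.6 ± 1.21 in WT libraries (SD, n = 3 each). Without Fmr1 the groups thus overlapped, at 43.2 to 45.8 in KO and 42.5 to 44.9 in WT. Fmr1 fell by 12.5 RPKM in KO, beside differences of 0.28 for Fxr1 and 0.92 for Fxr2. If each paralog stood at the upper bound of its own 95% interval, the gain would be 2.29 for Fxr1 and 3.50 for Fxr2. Together this is 46.4% of the 12.5 RPKM that Fmr1 lost in counted reads. Against the whole WT Fmr1 level of 23.7 RPKM the same gain would be a smaller part. No rise of a paralog passed the test, and rises up to those bounds lie within the intervals. Protein was not measured in these files.

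**Figure D2:**
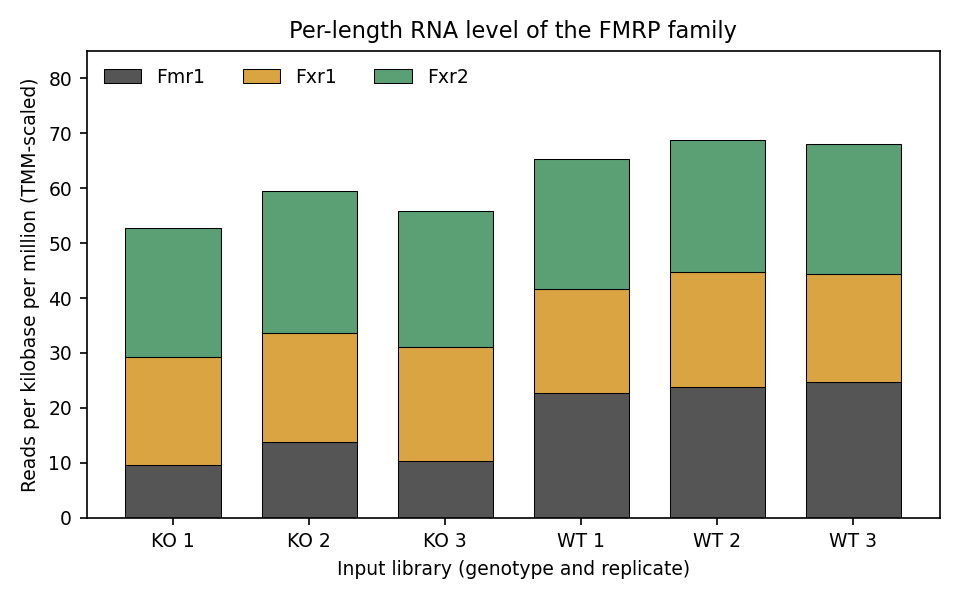
Per-length RNA level of the FMRP family in each input library, as stacked bars of TMM-scaled RPKM, KO libraries left of WT libraries. The Fmr1 part is smaller in every KO library, and the Fxr1 and Fxr2 parts keep about the same height in all 6 libraries, so that the summed level is 52.8 to 59.5 in KO and 65.3 to 68.7 in WT.

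Within this sum Fmr1 held a smaller share in every KO library than in any WT library. Fmr1 held 18.1%, 23.1% and 18.6% of the family's level in KO, against 34.9%, 34.6% and 36.2% in WT. Fxr2 held 44.1% ± 0.54 in KO libraries, against 35.3% ± 0.88 in WT libraries, and Fxr1 held 35.9% ± 2.20 in KO libraries, against 29.4% ± 0.91 in WT libraries (SD, n = 3 each). Shares are parts of a whole, so a fall of Fmr1 raises those of the paralogs even where their own levels stay the same. These shares rest on annotated exonic lengths of 8966, 6553 and 3766 bp for Fmr1, Fxr1 and Fxr2, merged over all transcripts, and transcripts in use may be shorter.

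Neither of the actin-regulating partners passed the threshold. Cyfip2 (ENSMUSG00000020340, chromosome 11, 46084677 to 46203686), whose protein binds FMRP and both FXR proteins, stood at 36.5, 38.4 and 37.9 CPM in KO, against 46.3, 46.2 and 46.2 CPM in WT. All KO libraries lay below all WT libraries, and the WT libraries were close to each other. The means were 37.6 ± 0.98 CPM in KO and 46.2 ± 0.057 CPM in WT (SD, n = 3 each), so that the KO mean was 81.4% of the WT mean. The log2 estimate was -0.30 (SE 0.085, 95% interval -0.47 to -0.12), with an unadjusted p = 0.00213 and an adjusted p = 0.444 (edgeR), so Cyfip2 did not pass. Under the 11 alternatives run for it the estimate stayed between -0.31 and -0.28 and the adjusted p between 0.209 and 0.807.

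Cyfip1 (ENSMUSG00000030447, chromosome 7, 55491493 to 55582350), whose protein links FMRP to the cap-binding factor eIF4E and so to translation, stood at 99.3, 99.3 and 107 CPM in KO, against 105, 95.2 and 91.6 CPM in WT. The groups overlapped, and the log2 estimate was 0.07 (SE 0.072, 95% interval -0.08 to 0.22, adjusted p = 0.976, edgeR). Exons of 2 opposite-strand genes cover 12.5% of its exonic length, and no strand option was set in counting, so reads there cannot be assigned to either. No overlap of this kind was annotated for Cyfip2, and for the other genes it covered at most 2.72% (Fxr1).

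Of the 10 genes, 2 had all KO libraries below all WT libraries (Fmr1, the disrupted gene, and Cyfip2), and none had all above. Over all tested genes these patterns were found in 5.69% and 5.22%. The same 2 genes were lower in KO at an unadjusted p under 0.05, which 3.00% of all tested genes were, and 0 of the 10 were higher, against 2.90% of all. The median log2 estimate of the 10 was -0.0078, beside -0.0020 over all tested genes, and 6 of the 10 estimates lay below 0.

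The nuclear partners gave no difference past the threshold. Nufip1 (ENSMUSG00000022009, chromosome 14, 76348331 to 76374819), whose protein takes part in the assembly of box C/D small nucleolar ribonucleoproteins, stood at 15.8, 14.5 and 16.1 CPM in KO, against 15.6, 14.4 and 20.3 CPM in WT. WT replicate 3 stood apart from the other 5 libraries. The log2 estimate was -0.12 (SE 0.14, adjusted p = 0.977, edgeR), and 0.039 with that library left out. Nufip2 (ENSMUSG00000037857, chromosome 11, 77576981 to 77632747), an RNA-binding protein also found in stress granules, stood at 126, 143 and 129 CPM in KO, against 131, 128 and 142 CPM in WT. The groups overlapped, with a log2 estimate of -0.0092 (95% interval -0.15 to 0.14, adjusted p = 0.995, edgeR).

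The stress granule partners overlapped between genotypes as well. Caprin1 (ENSMUSG00000027184, chromosome 2, 103593286 to 103627994), an RNA-binding partner of the G3BP proteins, stood at 358, 315 and 364 CPM in KO, against 334, 347 and 376 CPM in WT. Its log2 estimate was -0.03 (95% interval -0.17 to 0.11, adjusted p = 0.986, edgeR). G3bp1 (ENSMUSG00000018583, chromosome 11, 55360511 to 55395664), whose protein nucleates stress granules, stood at 79.97, 78.8 and 87.9 CPM in KO, against 84.6, 79.7 and 73.5 CPM in WT. Its log2 estimate was 0.05 (95% interval -0.11 to 0.21, adjusted p = 0.979, edgeR). G3bp2 (ENSMUSG00000029405, chromosome 5, 92200005 to 92231578), its paralog, stood at 120, 106 and 119 CPM in KO, against 115, 127 and 104 CPM in WT. Its log2 estimate was -0.0065 (95% interval -0.17 to 0.15, adjusted p = 0.995, edgeR). The intervals of these 3 genes reach no further than 0.21 on the log2 scale in either direction. Nufip2, Caprin1, G3bp1 and G3bp2 each had an estimate on the other side of 0 with 1 library left out, none past the threshold.

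**Figure D3:**
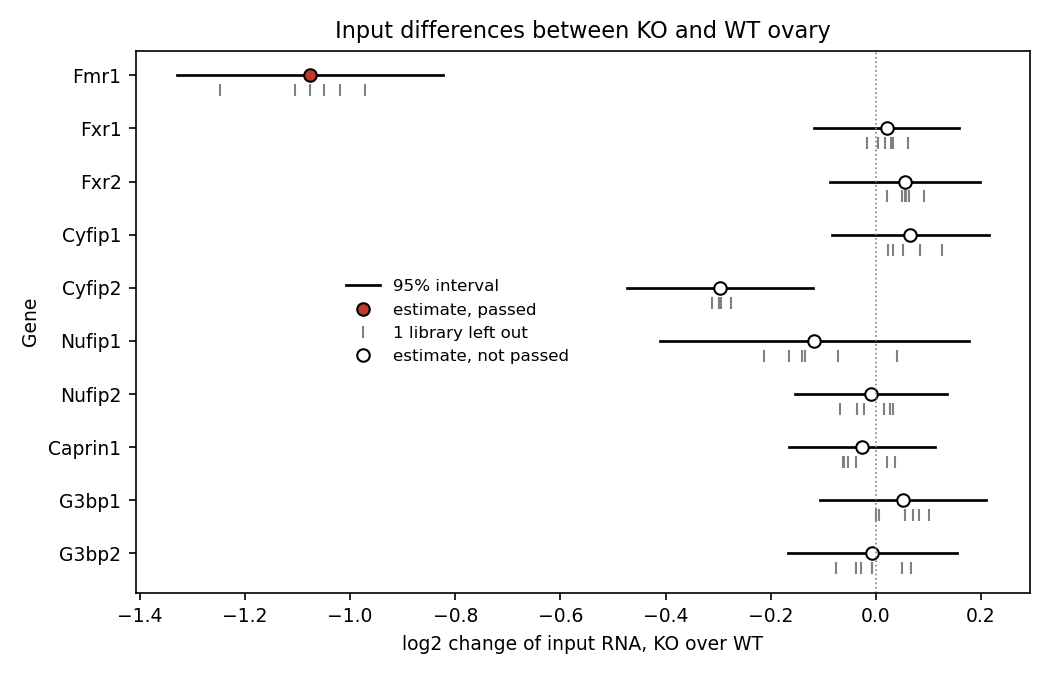
Log2 change of input RNA, KO over WT, for each gene (edgeR), with its 95% interval as a line and grey ticks for the estimates with 1 library left out. Fmr1, the filled point at -1.08, is the gene that passed; the Cyfip2 interval, -0.47 to -0.12, does not include 0, but its adjusted p was 0.444.

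Ordered by level per length in KO ovary, Caprin1 was highest (33.8 RPKM), followed by Fxr2 (24.7), Nufip2 (22.9), Fxr1 (20.1), G3bp2 (13.2), G3bp1 (11.6), Fmr1 (11.2), Cyfip1 (8.53), Cyfip2 (5.30) and Nufip1 (3.89). In WT ovary the order was Caprin1 (34.5), Fxr2 (23.8), Fmr1 (23.7), Nufip2 (23.1), Fxr1 (19.8), G3bp2 (13.3), G3bp1 (11.2), Cyfip1 (8.15), Cyfip2 (6.51) and Nufip1 (4.22). Fmr1 thus stood at rank 7 in KO and rank 3 in WT, while the other 9 kept their order among themselves. Neighbours whose libraries overlapped were Fxr2 and Nufip2, G3bp2 and G3bp1, and G3bp1 and Fmr1 in KO, and Fxr2 and Fmr1, and Fmr1 and Nufip2 in WT. Among all tested genes, the WT levels per length ran from percentile 57.6 (Nufip1) to percentile 94.5 (Caprin1), with Fmr1 at 91.5, Fxr1 at 89.3 and Fxr2 at 91.5.

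Likeness to Fmr1 was described by the Pearson correlation of log2 CPM over the 6 input libraries, among 19404 genes with a mean of at least 1 CPM. The 2 most alike were ENSMUSG00000083416 (X chromosome, 74187030 to 74187236; r = 0.992) and ENSMUSG00000045071 (chromosome 4, 59626211 to 59761439; r = 0.984). The first was near 1 CPM in all KO libraries (1.04, 1.33 and 1.17) and 1.85, 2.09 and 1.99 CPM in WT. The second stood at 44.3, 48.7 and 46.3 CPM in KO, against 51.9, 52.1 and 52.4 CPM in WT. Neither passed the threshold (adjusted p = 0.753 and 0.848, edgeR). Both were picked for following Fmr1 in these same libraries, so their lower KO values are no separate result. Cyfip2 came at rank 6 of the other 19403 genes (r = 0.982). Its KO libraries stood in the same order as those of Fmr1, while its WT libraries did not. The other members had correlations of -0.50 (Cyfip1) to 0.32 (Nufip2). The 6 libraries fall into 2 genotypes and share their scaling, and 187 genes reached 0.9. The correlation is given as a description only.

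Immunoprecipitated RNA was deposited as fold enrichments, a ratio per library whose denominator is not stated. The antibody was raised against FMRP, and whether the KO samples were free of this target was not measured here. The 10 genes had 22 of the 14447 rows of that table: 1 each for Fmr1, Fxr1, Cyfip1, Cyfip2, Nufip1 and G3bp1, 2 for Nufip2, 3 each for Fxr2 and G3bp2, and 8 for Caprin1. Rows of a gene are numbered here by falling mean ratio, and their positions in the gene are not given. Rows were compared on log2(ratio + 1), which understates differences of low ratios. RIP libraries stood apart from each other in their high ratios: the 99th percentile of all rows was 10.4, 25.1 and 17.1 in KO replicates 1 to 3, against 21.7, 10.3 and 11.6 in WT replicates 1 to 3.

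The Fmr1 row had ratios of 0.388, 0.439 and 0.439 in KO, against 1.34, 1.43 and 1.40 in WT. The groups did not overlap. The KO mean was 0.422 ± 0.029, against a WT mean of 1.39 ± 0.045 (SD, n = 3 each), a KO over WT ratio of 0.303. The exact two-sided permutation p was 0.1, the smallest that 3 against 3 libraries allow. With a row mean of 0.906 it missed the filter of 1 that the test used. In the fit without that filter it passed (log2 difference -0.75, SE 0.054, adjusted p = 0.0216, limma), as 0.00692% of all rows did. Every row of the table exceeds 1 in at least 1 library, and the Fmr1 row does so in WT libraries only, so a row this low in KO could be listed only by being higher in WT, and the test is no independent evidence of the difference. That call ended with any 1 library left out, with adjusted p of 0.145 to 0.313 and differences of -0.77 to -0.74. It also ended with the replicate block (adjusted p = 0.425, limma) and with quantile normalization (adjusted p = 0.0683, limma), and the difference was -1.52 with a pseudocount of 0.1 and -0.13 with one of 10. Fmr1 RNA itself was at 47.3% of WT in KO input, and its part in the ratio was not tested.

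Of the other 21 rows, all of which met the filter, 0 passed (limma, smallest adjusted p over all rows 0.375; 0% of 14365 rows passed). At an unadjusted p under 0.05 there was 1 of the 21, the Cyfip2 row, higher in KO, as 2.88% of all rows were; 0 were lower, against 5.98% of all rows. Their median log2 difference was 0.0042, beside 0.0021 over all tested rows.

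The single Fxr1 row had ratios of 1.21, 1.44 and 1.25 in KO, against 1.36, 1.63 and 1.52 in WT. The groups overlapped, and the log2 difference was -0.12 (SE 0.079, adjusted p = 0.714, limma). The same values are listed for a second gene identifier, so the row is not Fxr1's alone. Of the Fxr2 rows, the one with the highest mean had ratios of 2.43, 47.6 and 6.19 in KO, against 12.1, 4.40 and 2.49 in WT. KO replicate 2 carried most of that mean, and the log2 difference of 0.76 (SE 0.97, adjusted p = 0.860, limma) turned to -0.33 without it. Fxr2 row 2 had 1.84, 1.84 and 2.02 in KO, against 2.01, 2.57 and 3.01 in WT, with the lowest WT value just under the highest KO value (log2 difference -0.28, SE 0.14, adjusted p = 0.622, limma). Fxr2 row 3 had 1.59, 2.23 and 2.14 in KO, against 2.03, 2.50 and 1.97 in WT (log2 difference -0.09, adjusted p = 0.874, limma), and its estimate turned to 0.0026 without KO replicate 1.

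The Cyfip2 row had ratios of 1.70, 1.76 and 1.83 in KO, against 1.53, 1.50 and 1.08 in WT. All KO ratios lay above all WT ratios, the opposite order to its input RNA (log2 difference 0.23, SE 0.095, unadjusted p = 0.0475, adjusted p = 0.557, limma). The part of the lower input level in it was not tested. The Cyfip1 row had 1.17, 1.32 and 1.43 in KO, against 1.65, 2.20 and 1.24 in WT, which overlapped (log2 difference -0.21, SE 0.13, adjusted p = 0.698, limma). The Nufip1 row had 2.14, 1.66 and 2.42 in KO, against 3.33, 4.66 and 1.94 in WT (log2 difference -0.45, SE 0.24, adjusted p = 0.663, limma), with WT replicate 3 inside the KO range.

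**Figure D4:**
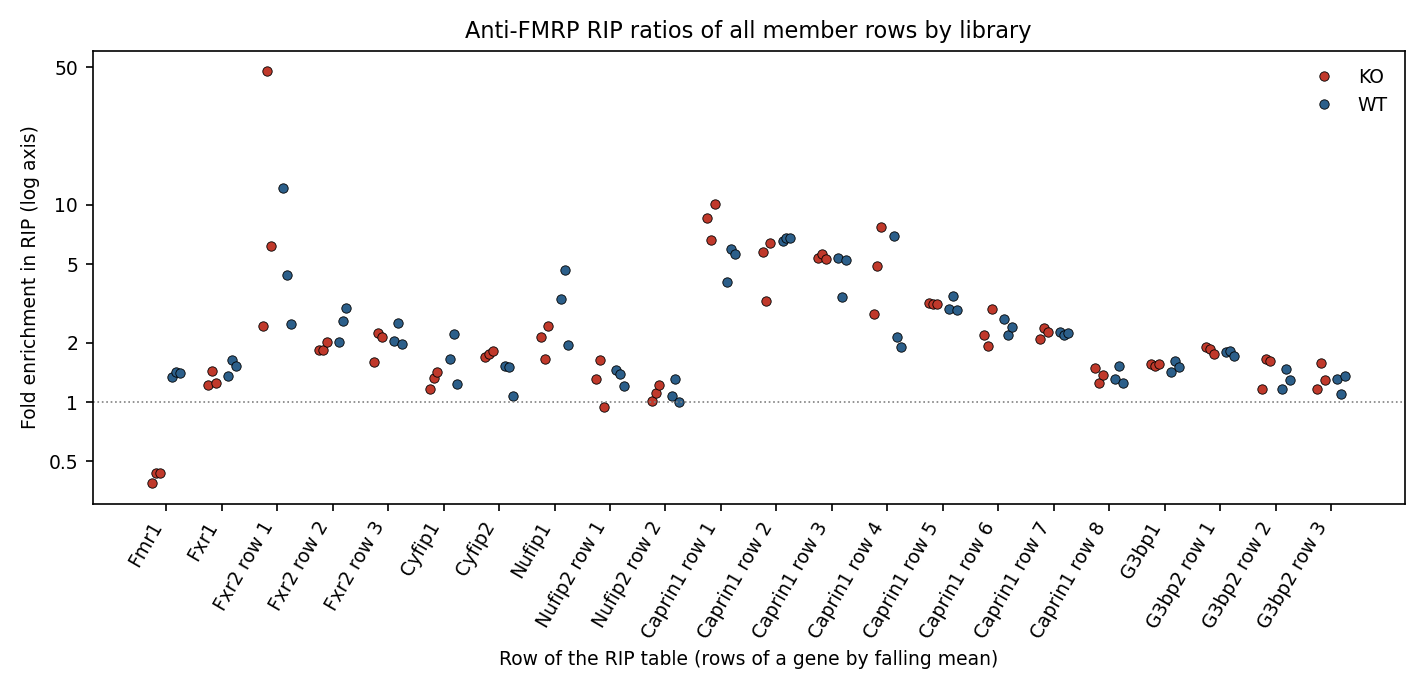
Deposited fold enrichments of the 22 rows in the 6 RIP libraries, on a log axis, with KO (red) left of WT (blue) and a dotted line at 1. The Fmr1 row is the one with KO ratios below 0.5; Fxr2 row 1 holds the single value of 47.6 in KO replicate 2, and rows of Caprin1 run from 1.25 to 10.07.

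Caprin1 had the highest ratios after Fxr2 row 1, and the estimates of its rows differed in sign, none past the threshold. Caprin1 row 1 had 8.55, 6.61 and 10.07 in KO, against 4.05, 6.00 and 5.64 in WT, with all KO above all WT (log2 difference 0.59, SE 0.32, adjusted p = 0.658, limma). Caprin1 row 2 had 5.78, 3.25 and 6.43 in KO, against 6.53, 6.77 and 6.77 in WT, with all KO below all WT (log2 difference -0.36, SE 0.31, adjusted p = 0.780, limma). Rows 3 and 4 overlapped, with log2 differences of 0.20 and 0.47 (SE 0.25 and 0.46; adjusted p = 0.852 and 0.801, limma). Over the 22 rows, KO lay wholly below WT in 2 (Fmr1 and Caprin1 row 2), against 8.40% of all rows, and wholly above in 2 (Cyfip2 and Caprin1 row 1), against 6.75% of all rows. The remaining 10 rows, of Nufip2, G3bp1, G3bp2 and Caprin1 rows 5 to 8, all overlapped, with log2 differences from -0.04 to 0.097 (adjusted p = 0.813 to 0.998, limma). G3bp1, for one, had 1.56, 1.52 and 1.56 in KO, against 1.42, 1.62 and 1.50 in WT.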

How the data were processed

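Input files hold raw read counts per gene as deposited, made with featureCounts 1.6.3 over exons of the Ensembl release 104 annotation, per the file headers, with no option for strand, read pairs or multiple placements. RIP values are a fold enrichment ratio deposited by the authors per library; how its denominator and rows were chosen is not stated in the labels. The submitters' processing notes list BWA 0.7.12, MACS2 2.1.0, DESeq2 1.26.0 and GRCm38, without roles; the annotation in the headers is of a later build, and no coordinates were converted.

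The members and lists were chosen with earlier results of these data known. Counts of KO and WT input were tested over all genes with edgeR 4.0.16 (R 4.3.3; TMM, filterByExpr, robust quasi-likelihood) and Benjamini-Hochberg adjustment at 0.05; 95% intervals use the fit's standard error. RIP ratios were tested with limma 3.58.1 (trend) on log2(ratio + 1) after median centring of each library, leaving out rows whose mean was under 1. Every member was named with values, together with the 2 genes most correlated with Fmr1. Alternatives were DESeq2 1.42.0, RLE factors, limma-voom, no filter, a replicate block, libraries left out, other pseudocounts and scalings.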

Additional observations from a re-analysis of the deposited data

How the results depend on the processing

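The fall of Fmr1 in KO input kept its direction and its call in all 11 alternatives run for it (log2 change -1.25 to -0.97, largest adjusted p = 0.0445, over edgeR, DESeq2 and limma-voom fits), and no other member was called in any of the 11. The Fxr2 estimate stayed between 0.021 and 0.091 and the Cyfip2 estimate between -0.31 and -0.28. Estimates near 0 changed sign with 1 library left out: Fxr1 ran from -0.016 to 0.062, Nufip1 from -0.21 to 0.039, Nufip2 from -0.067 to 0.033, Caprin1 from -0.062 to 0.036, G3bp1 from -0.00021 to 0.10 and G3bp2 from -0.075 to 0.068. Over all genes, 10 were called, and 37 with DESeq2, 113 with no low-count filter, 20 with the replicate block and 5 to 37 with 1 library left out (37 without KO replicate 1, 5 without KO replicate 2 and 28 without WT replicate 2); the cause was not tested. In input, KO and WT libraries sharing a replicate number did not deviate together (r of -0.069, -0.032 and -0.046 for numbers 1 to 3). In RIP they tended to deviate in opposite directions (r of -0.60, -0.34 and -0.22), and the cause was not tested. Libraries with different numbers were not compared in this way, so these values do not show whether the replicate number matters. The replicate block changed no call of a member in input.

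No RIP row was called with the filter, and 1 was called when low rows were kept, that of Fmr1. As said above, a row this low in KO could be listed only by being higher in WT, so the call is no independent evidence. The further settings for that row were chosen after seeing the data. Its log2 difference of -0.75 lost its call with quantile normalization (-0.71, adjusted p = 0.0683, limma), with the replicate block (-0.75, adjusted p = 0.425) and with each library left out (-0.74, -0.75 and -0.76 without KO replicates 1 to 3, and -0.77, -0.74 and -0.74 without WT replicates 1 to 3), and kept it with no centring and with pseudocounts of 0.1 and 10, which put the difference at -1.52 and -0.13. With a library left out, Fxr2 row 1 ran from -0.33 to 1.56 and Fxr2 row 3 from -0.14 to 0.0026, while without a change of sign Fxr1 ran from -0.17 to -0.085, Fxr2 row 2 from -0.39 to -0.17, Cyfip1 from -0.33 to -0.081, Cyfip2 from 0.14 to 0.27, Nufip1 from -0.69 to -0.22 and Caprin1 rows 1 to 4 from 0.44 to 0.74, from -0.52 to -0.11, from 0.030 to 0.29 and from 0.18 to 0.94, none called. The order of the 10 genes by level was the same in TPM. Without division by length, Fmr1, Fxr1 and Fxr2 held 30.8%, 40.6% and 28.6% of the family's reads in KO, against 49.2%, 30.0% and 20.7% in WT. No read depth stands behind the RIP ratios, so their counting error is unknown.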
